A study of Mus musculus with 25 samples.

Results

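The genes described here are 8 genes of cholesterol efflux and liver X receptor (LXR) signalling: Abca1, Abcg1, Apoe, Pltp, Mylip, Lpcat3 and the receptor genes Nr1h3 and Nr1h2. They were taken from the deposited count table by gene symbol, and all 8 were among the 24537 gene models of the table and among the 16961 genes that passed the filter on low counts. Each of the 25 libraries held 200 sorted myeloid cells of C57BL6 mice, and the feed contained 10% fat (CD, the control) or 45% fat (HFD). White adipose tissue (eWAT in the titles) gave 4 macrophage populations: pop1 was Tim4+ with low MHCII, pop2 was Tim4+ with high MHCII, pop3 was Tim4- and CD11c- with high MHCII, and pop4 was Tim4- and CD11c+ with MHCII. Each of these had 2 libraries per diet, and blood monocytes sorted on CD115 and Ly6C had 6 libraries on CD and 3 on HFD. Collagenase was used to free the adipose cells, with flavopiridol added to block new transcription, and the labels describe neither for blood. No genetic alteration is named. The labels do not say how many mice stand behind a library, so p-values measure the spread between these libraries, which may be partly technical.

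LXRs are nuclear receptors that sense oxidised forms of cholesterol. Paired with a retinoid X receptor (RXR), they bind direct repeats of a hexamer and switch on genes that remove surplus sterol: Abca1 passes cholesterol and phospholipid to lipid-poor apolipoproteins, Abcg1 passes cholesterol to larger lipoprotein particles, and Apoe is an acceptor that macrophages themselves secrete. Adipose tissue stores much of the body's cholesterol in fat cells, and the macrophages among them take up lipid and return it to the circulation.

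Abca1, Apoe and Mylip shared a pattern over the adipose populations, described below, and the sequence before their annotated start sites is shown for reference. The sequences are the 250 bases upstream of a start in RefSeq (GRCm38.p6), 5′ to 3′ on the gene's strand, and 7 of the 8 members matched an entry in that table.
Abca1 (minus strand, chr4:53159896-53160145): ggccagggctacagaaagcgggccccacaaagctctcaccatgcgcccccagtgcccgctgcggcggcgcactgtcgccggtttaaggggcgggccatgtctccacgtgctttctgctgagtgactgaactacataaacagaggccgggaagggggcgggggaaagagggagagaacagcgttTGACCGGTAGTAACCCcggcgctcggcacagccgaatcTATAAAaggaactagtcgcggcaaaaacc
Apoe (minus strand, chr7:19699189-19699438): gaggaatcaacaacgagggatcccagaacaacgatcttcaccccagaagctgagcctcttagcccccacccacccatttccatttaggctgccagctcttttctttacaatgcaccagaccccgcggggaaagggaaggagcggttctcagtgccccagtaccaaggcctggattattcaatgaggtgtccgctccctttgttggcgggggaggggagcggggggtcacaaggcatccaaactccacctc
Mylip (plus strand, chr13:45389492-45389741): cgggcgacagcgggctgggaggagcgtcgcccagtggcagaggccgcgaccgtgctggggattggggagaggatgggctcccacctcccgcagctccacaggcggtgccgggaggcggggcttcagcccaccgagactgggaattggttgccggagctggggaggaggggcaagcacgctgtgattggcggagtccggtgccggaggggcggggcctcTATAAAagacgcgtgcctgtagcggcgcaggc
Capitals mark a TATA box, spelled TATAAA, on either strand, and, in Abca1, the closest match to an LXR element of the DR4 type, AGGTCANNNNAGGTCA, also searched on both strands. The Abca1 match lies on the opposite strand, 67 to 52 bases before the start, and differs from the element at 3 of its fixed positions. Of 32851 windows of 300 bases in the table, 21.9% held a match at least as close and 3.02% held one with 2 or fewer mismatches. The closest matches of the other 6 members had 4 or 5 mismatches. TATAAA stood 29 bases before the start in Abca1 and 32 bases before it in Mylip, and 13.6% of all windows held it. The table holds 3 starts for Apoe, and the window of another of them has TATAAA 96 bases before its start. These matches describe letters in the windows and were not tested for binding.

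Total counts were 3.75 to 9.34 M per library. Levels are in CPM, counts scaled to a common library total after adjustment by TMM factors, and 3 counts corresponded to 0.341 to 0.698 CPM. Macrophage genes (Adgre1, Csf1r, Cd68, Mrc1, Mertk, Fcgr1, Lyz2 and Cd14) summed to 2969 to 5723 CPM in the adipose libraries. Of the sort genes, Timd4 and Itgax followed the gates. Timd4 was 88.6 to 624 CPM in Tim4+ and at most 11.9 in Tim4- libraries. Itgax, which encodes CD11c, was 180.3 to 191.5 CPM in pop4 and at most 43.6 elsewhere. Ly6c2 was 434 to 674 CPM in monocytes. Csf1r, which encodes CD115, did not set monocytes apart. It was 385 to 507 CPM in monocytes, 419 to 733 in pop1 to pop3 and 277 to 314 in pop4. Levels of the MHCII genes are not given here. Counts in 1463 olfactory and vomeronasal receptor genes, which myeloid cells are not known to use and which serve here as a background measure, were 244 to 642 CPM in pop1, 388 to 683 in pop2, 194 to 657 in pop3, 79.5 to 190 in pop4 and 93.0 to 255 in monocytes. Differences were tested with edgeR's quasi-likelihood F test in 1 fit of all 25 libraries, and a gene was called at a Benjamini-Hochberg adjusted p below 0.05 over all genes tested. Log2 differences are followed by their standard error (SE).

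**Figure D1:**
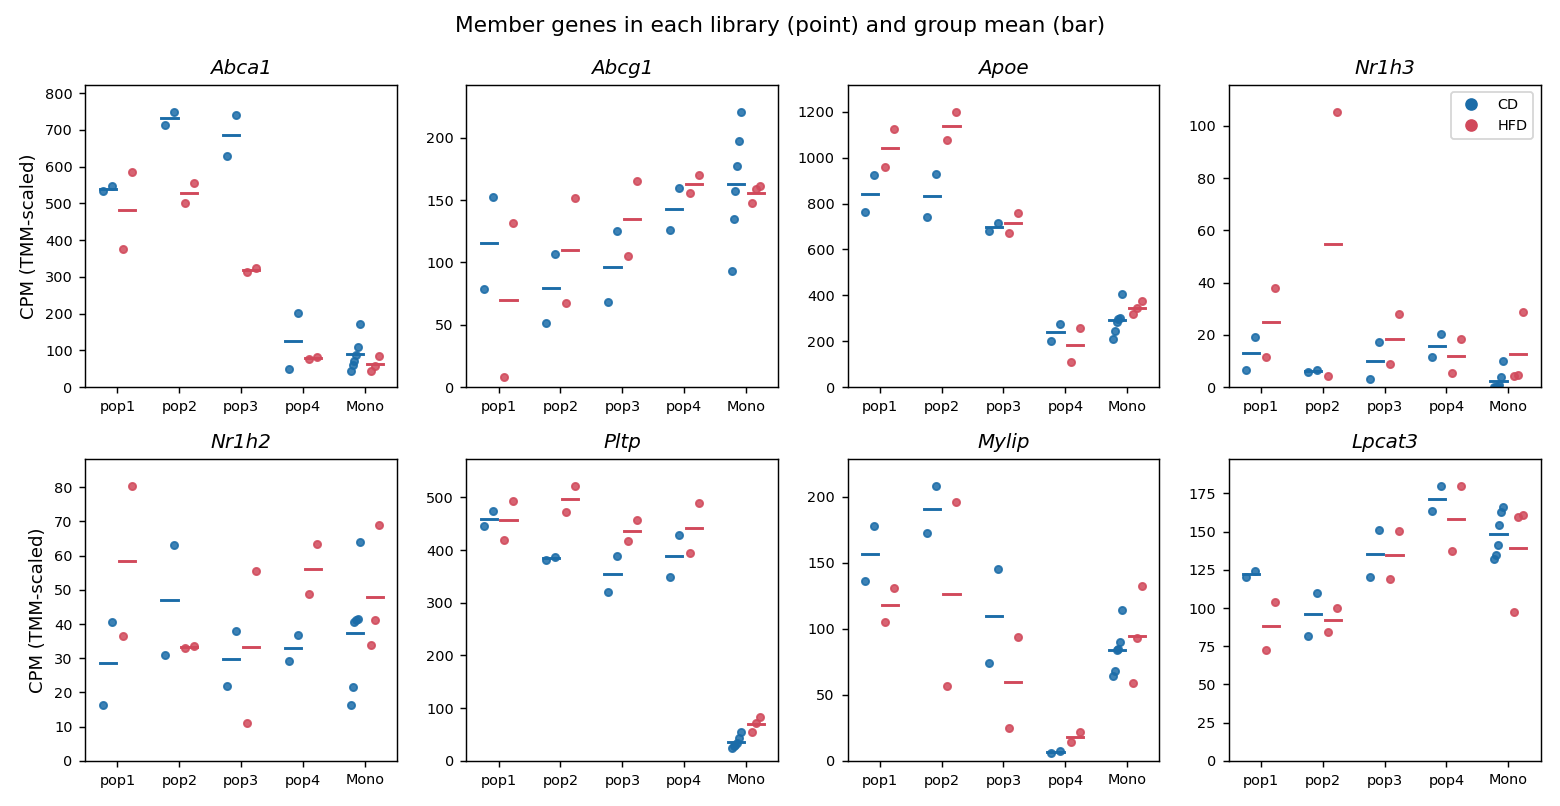
CPM of each member gene (y axis, linear, from 0) by population (x axis); points are libraries, blue for CD and red for HFD, and bars are group means. Abca1, Apoe and Mylip are low in pop4, Pltp is low in monocytes alone, and Nr1h3 has a single library at 105 CPM.

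Abca1 (mm10, chr4:53030789-53159895, minus strand), the transporter that loads lipid-poor apolipoproteins, was high in pop1, pop2 and pop3 and low in pop4 and in monocytes. In pop1 it was 547 and 534 CPM on CD and 584 and 377 on HFD. In pop2 it was 748 and 715 CPM on CD and 557 and 501 on HFD. In pop3 it was 630.1 and 741 CPM on CD and 312 and 325 on HFD. All 12 of these libraries lay above every library of pop4 and of monocytes. In pop4 it was 50.2 and 202 CPM on CD and 76.2 and 82.8 on HFD. In monocytes the 6 CD libraries had a lowest value of 44.2, a median of 79.8 and a highest value of 173 CPM, and the 3 HFD libraries were at 44.5, 56.1 and 84.1 CPM. The monocyte and pop4 ranges overlapped over most of their width.

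The order of the Abca1 means was pop2 (629.9 ± 119.8 CPM, SD, n = 4), pop1 (510.5 ± 91.6), pop3 (502 ± 217), pop4 (103 ± 67.7) and monocytes (81.1 ± 40.5, n = 9). Abca1 was higher in pop3 than in pop4 by 2.22 on the log2 scale (SE 0.38, adjusted p 0.00104, edgeR), and all 4 pop3 libraries lay above all 4 pop4 libraries. It was higher than in pop4 by 2.35 (SE 0.38, adjusted p 0.000236) in pop1 and by 2.64 (SE 0.38, adjusted p 8.4e-05) in pop2. The neighbours at the top of the order did not pass the test: pop2 against pop1 gave 0.29 (SE 0.36, adjusted p 0.902) and pop1 against pop3 gave 0.12 (SE 0.36, adjusted p 0.959). Against monocytes, pop4 gave 0.42 (SE 0.31, adjusted p 0.462), which became -0.25 (adjusted p 0.723) without pop4 CD replicate 8, the library at 202 CPM. Against monocytes, pop1, pop2 and pop3 were higher by 2.77, 3.06 and 2.65 (adjusted p 9.38e-07, 2.67e-07 and 2.34e-06).

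Apoe (chr7:19696244-19699188, minus strand), which encodes a secreted apolipoprotein that accepts cholesterol and is bound by lipoprotein receptors, had the highest level per length of the 8 genes, at 561 ± 267 CPM per kb over the 16 adipose libraries (SD). Pltp followed at 239 ± 31.1 CPM per kb and Lpcat3 at 50.2 ± 13.4, while the receptor genes stood lowest, Nr1h2 at 19.9 ± 9.14 and Nr1h3 at 9.98 ± 12.8 CPM per kb. Abca1 was 42.7 ± 23.4, Mylip 33.0 ± 23.9 and Abcg1 19.6 ± 8.18 CPM per kb.

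In pop1 Apoe was 762 and 923 CPM on CD and 958 and 1125 on HFD. In pop2 it was 740.1 and 927 CPM on CD and 1077 and 1197 on HFD. In pop3 it was 679 and 716 CPM on CD and 759 and 673 on HFD. These 12 libraries lay above all others. In pop4 it was 203 and 273 CPM on CD and 259 and 109 on HFD. The monocytes had a lowest value of 208, a median of 292 and a highest value of 405 CPM on CD, and the HFD libraries were at 319, 343 and 376 CPM. Monocytes thus lay between pop3 and pop4, with their lowest CD libraries inside the pop4 range. Apoe was higher in pop3 than in pop4 by 1.76 (SE 0.22, adjusted p 3.03e-05), in pop1 by 2.16 (SE 0.22, adjusted p 8.82e-07) and in pop2 by 2.22 (SE 0.22, adjusted p 9.67e-07). Pop2 against pop3 gave 0.46 (SE 0.21, adjusted p 0.368). Against monocytes, pop3 was higher by 1.16 (SE 0.18, adjusted p 7.34e-05) and pop4 was lower, with a log2 difference of -0.60 (SE 0.19, adjusted p 0.0378). The pop4 call was lost without pop4 CD replicate 7 (-0.50, adjusted p 0.206), without pop4 HFD replicate 3 (-0.35, adjusted p 0.280) and without any 1 of the 3 HFD monocyte libraries (adjusted p 0.0505 to 0.0778).

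Pltp (chr2:164839518-164857708, minus strand), a secreted phospholipid transfer protein that remodels high density lipoprotein, separated adipose macrophages from monocytes and did not separate the adipose populations. It was 446, 474, 493.3 and 419.7 CPM in pop1, 387, 381, 472 and 521 in pop2, 389, 321, 456 and 416 in pop3 and 349, 429, 489.8 and 395 in pop4, CD libraries first. In monocytes it was 25.3 to 54.0 CPM on CD (median 31.9) and 53.9 to 83.5 on HFD, so that the lowest adipose library, at 321 CPM, was well above the highest monocyte library. Pop4, which was low in Abca1 and Apoe, was higher in Pltp than monocytes by 3.05 (SE 0.18, adjusted p 1.49e-10). Pop1, pop2 and pop3 were higher than monocytes by 3.20, 3.13 and 2.98 (adjusted p 3.35e-11, 4.12e-11 and 1e-10). Between neighbouring adipose populations the difference was at most 0.08 on the log2 scale (SE 0.21 each). Pltp, on the minus strand of chromosome 2, shares 495 of its 2354 annotated exonic bases (21.0%) with Ctsa on the opposite strand. Whether counting used strand is not given in the sources used here, so reads of this stretch cannot be told apart. Ctsa, a lysosomal carboxypeptidase gene, was 554 ± 84.0 CPM (SD, n = 16) in adipose libraries and 470.0 ± 59.8 (n = 9) in monocytes, a log2 difference of 0.21 (SE 0.08, adjusted p 0.0488).

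Mylip (chr13:45389742-45411940, plus strand), which encodes IDOL, a ubiquitin ligase that removes the low density lipoprotein receptor from the cell surface, was lowest in pop4, below monocytes as well. It was 178 and 136 CPM on CD and 131 and 105 on HFD in pop1. In pop2 it was 173 and 208 CPM on CD and 196 and 56.5 on HFD, and in pop3 145 and 73.8 on CD and 24.9 and 94.2 on HFD. In pop4 it was 7.18 and 5.92 CPM on CD and 21.7 and 14.3 on HFD, so that no pop4 library reached the lowest library of another population. Monocytes ranged from 58.7 to 132 CPM with a median of 84.6. The HFD libraries pop2 replicate 3 and pop3 replicate 2 lay apart from their partners. Mylip was higher than in pop4 by 3.65 in pop1 (SE 0.46, adjusted p 1.48e-05), by 3.84 in pop2 (SE 0.46, adjusted p 9.51e-06) and by 2.90 in pop3 (SE 0.44, adjusted p 0.0004). Pop4 was lower than monocytes, at -3.04 (SE 0.42, adjusted p 3.4e-05). Pop2 against pop3 gave 0.94 (SE 0.41, adjusted p 0.345), and the remaining populations did not pass the test against each other.

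Abcg1 (chr17:31057694-31117981, plus strand), the partner transporter of Abca1, did not follow it. Its means ran in the other direction, from 92.7 ± 64.2 CPM in pop1 (SD, n = 4), 94.3 ± 45.0 in pop2 and 116 ± 40.5 in pop3 to 153 ± 18.9 in pop4 and 161 ± 36.4 in monocytes (n = 9). No pair of populations passed the test, and the largest gap between neighbours was 0.41 on the log2 scale (SE 0.50, adjusted p 0.635). Pop1 HFD replicate 3 stood apart at 8.44 CPM, while the other 3 pop1 libraries were at 78.5 to 152. Without its partner, pop1 HFD replicate 2, which leaves that library alone in its group, Abcg1 was called lower in Tim4+ than in Tim4- populations (-1.31, adjusted p 0.00227) and lower in adipose populations than in monocytes (-0.94, adjusted p 0.00144).

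Lpcat3 (chr6:124663104-124704716, plus strand), an enzyme that puts polyunsaturated chains into membrane phospholipids, was 72.4 to 124 CPM in pop1, 81.8 to 110.0 in pop2, 119 to 151 in pop3, 137 to 179.8 in pop4 and 97.2 to 166 in monocytes. The pop4 libraries lay above all pop1 and pop2 libraries. It was lower than in pop4 in pop2 (log2 difference -0.81, SE 0.23, adjusted p 0.0175) and in pop1 (-0.66, SE 0.23, adjusted p 0.0489), and lower in pop2 than in monocytes (-0.61, SE 0.20, adjusted p 0.0207). These calls were narrow. The pop1 call was lost without any of 20 single libraries (adjusted p up to 0.17), the pop2 call against pop4 without pop2 CD replicate 7, pop4 CD replicate 8 or pop4 HFD replicate 2 (adjusted p 0.0566 to 0.0807), and the call against monocytes without pop2 CD replicate 7 or pop2 HFD replicate 3 (adjusted p 0.0617 and 0.0658). With DESeq2 size factors all of these calls were lost, at -0.50 for pop1 and -0.59 for pop2 against pop4 and -0.37 for pop2 against monocytes (adjusted p 0.119, 0.0597 and 0.133), and they were lost with upper-quartile factors and with the background covariate as well. Lpcat3 shares 38 exonic bases (1.67%) with Emg1 on the opposite strand.

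The receptor genes were low. Nr1h2 (chr7:44549616-44553965, minus strand), which encodes the broadly expressed LXRβ, was 11.1 to 80.3 CPM in adipose libraries and 16.2 to 69.0 in monocytes, and its largest gap between neighbouring populations was 0.33 on the log2 scale (SE 0.55). Nr1h3 (chr2:91184061-91195035, minus strand), which encodes LXRα and is itself an LXR target in human macrophages, was 3.20 to 38.0 CPM in 15 of the 16 adipose libraries and 105 CPM in pop2 HFD replicate 3, whose partner had 4.15. In monocytes on CD it was 3.86, 10.1, 0.699, 0, 0.127 and 0.117 CPM, from 31, 80, 6, 0, 1 and 1 counts, and on HFD 4.36, 28.6 and 4.71 CPM. At this depth 0 counts allows a level of up to the 3-count value given above, and intervals of this kind cover counting error only. The 3 monocyte CD libraries with 0 or 1 counts carry the title series CD-CD and the other 3 the title series CD. The monocyte and adipose ranges overlapped.

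**Figure D2:**
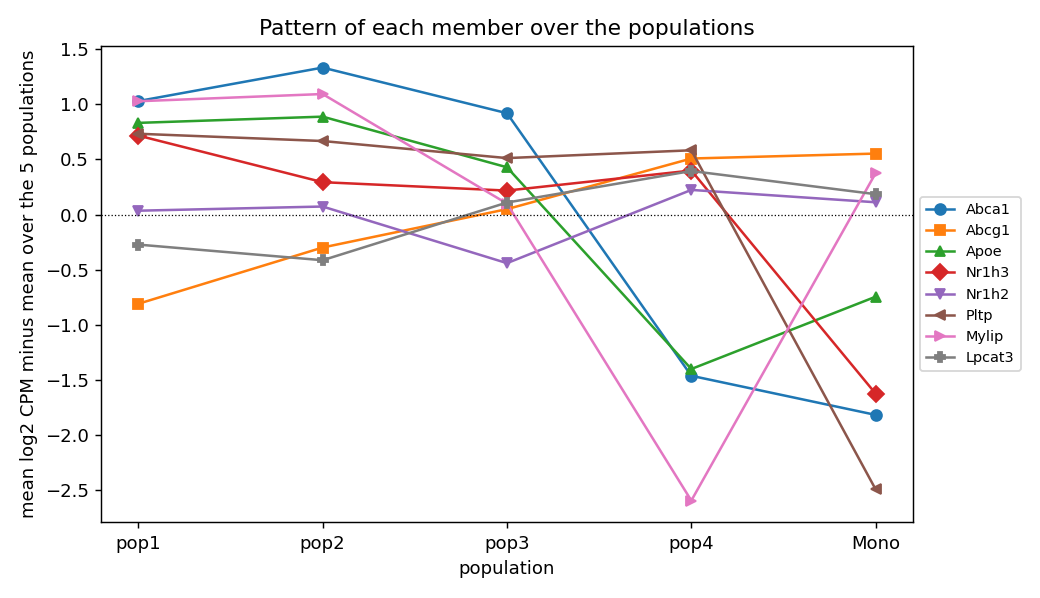
Mean log2 CPM of each member in the 5 populations (x axis), minus that gene's mean over the 5 populations (y axis, log2 units). Abca1, Apoe and Mylip fall from pop3 to pop4, Pltp stays level to pop4 and falls in monocytes, and Abcg1 and Lpcat3 have their higher values in pop4 and monocytes.

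Over all 4 adipose populations against monocytes, 3 of the 8 genes were called, all higher in adipose macrophages, where 18.5% of all genes tested were called higher and 37% in either direction. Pltp was higher by 3.09 (SE 0.16, adjusted p 3.64e-12), Abca1 by 2.22 (SE 0.25, adjusted p 7.62e-07) and Apoe by 0.94 (SE 0.14, adjusted p 1.62e-05). Nr1h3 gave 1.502 (SE 0.85, adjusted p 0.170), Abcg1 -0.54 (SE 0.30, adjusted p 0.165), Mylip -0.44 (SE 0.25, adjusted p 0.167), Lpcat3 -0.24 (SE 0.14, adjusted p 0.167) and Nr1h2 -0.14 (SE 0.33, adjusted p 0.811). Mylip was called lower (adjusted p 0.0464 and 0.041) without pop2 HFD replicate 2 or pop3 HFD replicate 3. The median over the 8 genes was 0.40 and that over all genes 0.19. Tissue, gate and handling cannot be told apart in this comparison, and neither can fewer expressing cells and less RNA per cell. Markers of fat cells also stood higher in the adipose libraries, at 273 to 754 CPM summed over 10 genes against 12.4 to 32.8 in monocytes, with Fabp4, which macrophages also express, at 145 to 344 CPM and Adipoq at 0.396 to 176 CPM. Stromal progenitor markers summed to 128 to 1613 CPM in adipose libraries and 62.0 to 138 in monocytes, with Dcn at 3.03 to 887 and at most 0.877 CPM. Their part in the differences from monocytes was not tested.

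Between Tim4+ and Tim4- adipose populations 4 of the 8 genes were called, against 15.1% of all genes tested. Mylip was higher in Tim4+ populations by 2.30 (SE 0.31, adjusted p 2.71e-05), Abca1 by 1.38 (SE 0.26, adjusted p 0.00102) and Apoe by 1.31 (SE 0.15, adjusted p 4.67e-06), while Lpcat3 was lower (-0.59, SE 0.16, adjusted p 0.0158). Higher calls made up 7.26% and lower calls 7.79% of all genes (1232 and 1322 genes, or 1625 and 1074 with DESeq2 size factors). The Tim4- side joins pop3 and pop4, and the 3 genes were called between pop3 and pop4 but not between pop3 and pop1 or pop2. The values for Pltp (0.15, SE 0.15), Abcg1 (-0.53, SE 0.35), Nr1h3 (0.40, SE 0.90) and Nr1h2 (0.13, SE 0.39) did not pass the test. The Lpcat3 call was lost without pop2 CD replicate 7 (adjusted p 0.0501), with the background covariate (-0.47, adjusted p 0.442) and when fitted on either diet's libraries. Fitted on CD libraries, Abca1 gave 1.101 (adjusted p 0.212), and fitted on HFD libraries Mylip gave 1.94 (adjusted p 0.051). Over the 10 pairs of populations, 24 of 80 tests of members were called. Against pop4, 4 of the 8 genes were called in pop1 (16.1% of all genes), 4 in pop2 (21.2%) and 3 in pop3 (6.57%). Against monocytes, 3 were called in pop1 (32.8% of all genes), 4 in pop2 (40%), 3 in pop3 (25.2%) and 3 in pop4 (12.5%). Among pop1, pop2 and pop3 none of the 8 genes was, where 0.466% (pop1 against pop2), 1.59% (pop1 against pop3) and 1.03% (pop2 against pop3) of all genes were. At an unadjusted p below 0.05, 3 members and 2078 of the 16961 genes passed between pop2 and pop3, and 0 members in the other pairs of these populations.

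**Figure D3:**
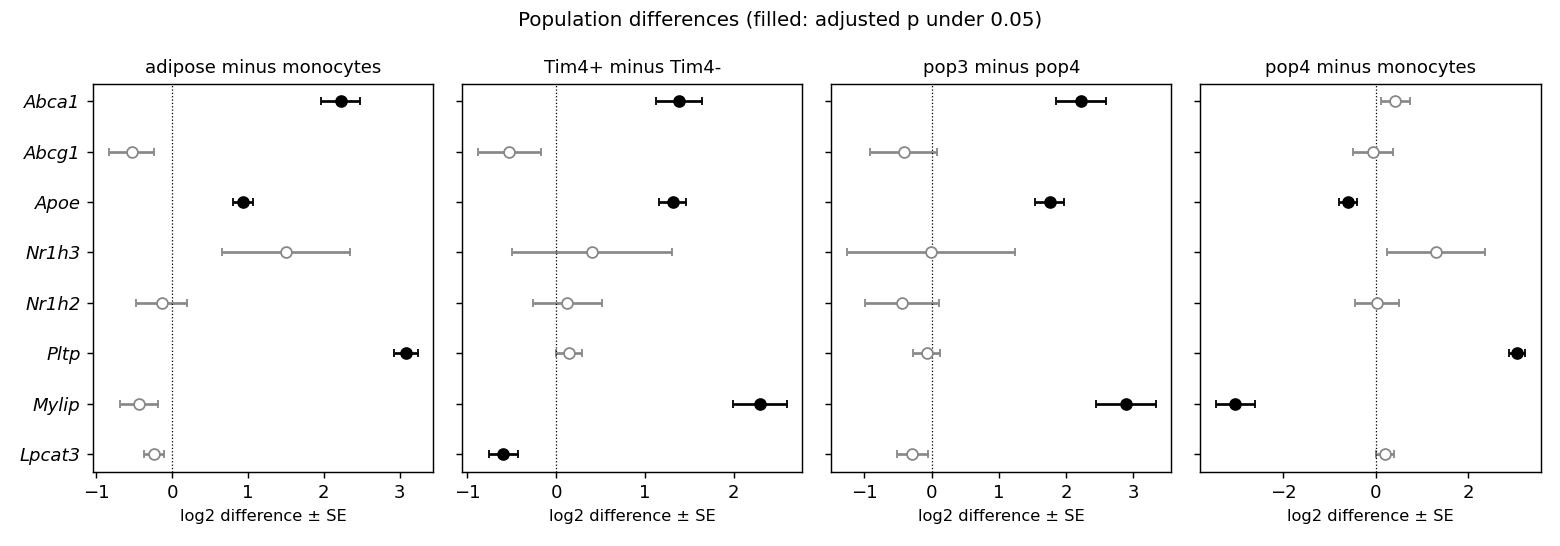
Log2 difference of each member (x axis, bars are SE) in 4 comparisons; filled points have an adjusted p below 0.05. Abca1, Apoe and Mylip are filled to the right in the Tim4 and the pop3 against pop4 panels, and Mylip lies at -3.04 in pop4 against monocytes.

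The background measure was lower in pop4 and monocytes than in most libraries of the other populations, as Abca1 and Apoe were. Mylip was low together with it in pop4 but not in monocytes. With the background as a covariate, Apoe (1.21, adjusted p 0.00809) and Mylip (3.09, adjusted p 0.000547) passed the test between Tim4+ and Tim4- populations, and Abca1 gave 1.496 (adjusted p 0.0856). The Abca1 difference from pop4 was then 2.41 in pop3 (SE 0.66, adjusted p 0.115), 2.54 in pop1 (adjusted p 0.0655) and 2.86 in pop2 (adjusted p 0.0795), estimates as large as without it that did not pass the test, and Apoe in pop4 against monocytes was -0.56 (adjusted p 0.082). Among the 12 libraries of pop1 to pop3, 2 had a background no higher than the highest monocyte library (255 CPM). Pop1 HFD replicate 2, at 244 CPM of background, had 584 CPM of Abca1 and 958 of Apoe, and pop3 HFD replicate 3, at 194, had 325 and 673. Both lay above every pop4 and monocyte library in these genes. In Mylip they had 131 and 94.2 CPM, above every pop4 library and within the monocyte range. Of the platelet list, Pf4, which macrophages also express, was 527 to 912 CPM in pop1 to pop3 and 164 to 269 in pop4, while Itga2b, which defines the lineage, was at most 3.72 CPM in any adipose library.

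**Figure D4:**
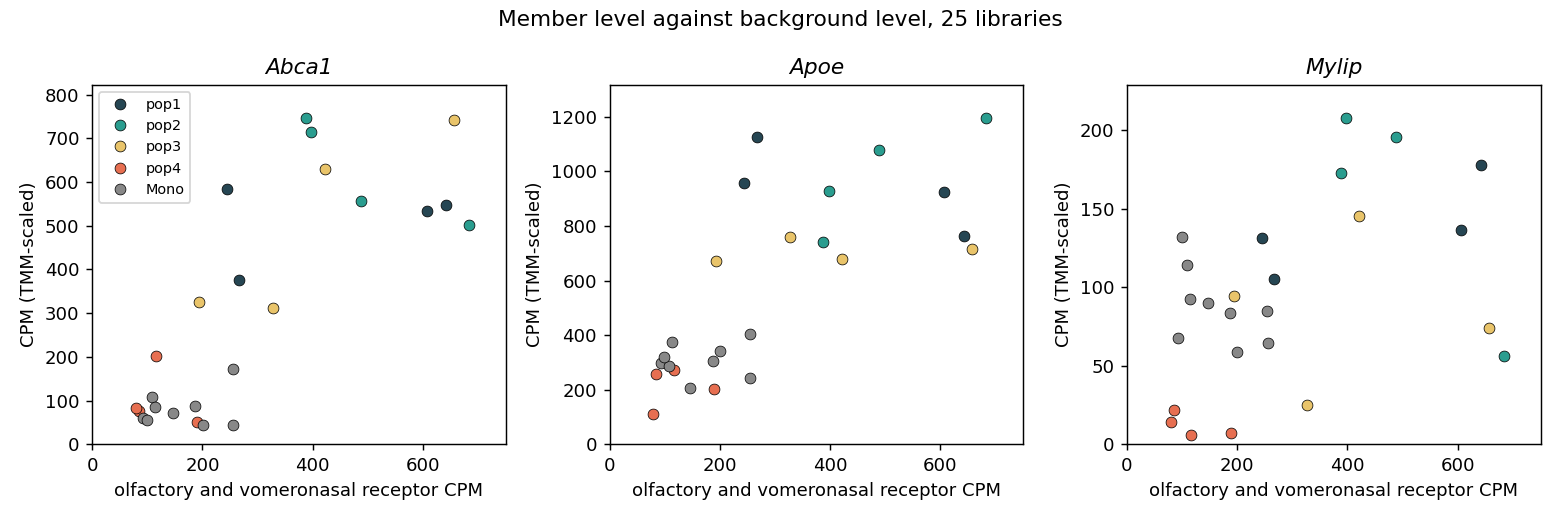
CPM of Abca1, Apoe and Mylip (y axes, linear) against the summed CPM of olfactory and vomeronasal receptor genes (x axis) in 25 libraries coloured by population. Pop4 and monocyte libraries lie at low background, and 2 libraries of pop1 and pop3 at similar background have higher Abca1 and Apoe.

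None of the 8 genes passed the threshold for diet in any population, over the 4 adipose populations together, or in the difference of diet effects between Tim4+ and Tim4- populations. The shares of all genes called were 0.436% in pop1, 4.19% in pop2, 0.0943% in pop3, 0.0354% in pop4, 0.0059% in monocytes, 5.34% over the adipose populations and 0.637% for the difference of effects. At an unadjusted p below 0.05, 1 member each passed in pop3, in pop4, in monocytes and over the adipose populations, and 0 in pop1, pop2 and the difference of effects. Of the 16961 genes, 1873, 1186, 1169 and 3357 passed at that level in the same 4 comparisons, and the members' share was not read as a result. DESeq2 called 1, Pltp in monocytes, and none elsewhere. With 2 libraries per diet in each adipose population, the diet ranges of a gene can easily separate by chance. The share of all genes that do so was not computed, so ranges without overlap are given below as description only. Ranges also lacked overlap for Nr1h2 in pop4 (higher on HFD) and Lpcat3 in pop1 (lower on HFD). All adipose CD libraries belong to the title series CD-CD, which some monocyte CD libraries share, and no adipose HFD library does. Diet and title series therefore cannot be told apart in adipose tissue.

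Pltp in monocytes was closest. The HFD libraries were at 71.8, 53.9 and 83.5 CPM and the CD libraries at 43.6, 25.3, 54.0, 29.3, 34.5 and 28.5, so that 2 of the 3 HFD libraries lay above all 6 CD libraries and the third was level with the highest of them. The log2 difference was 0.96 (SE 0.20, adjusted p 0.209, edgeR), with an adjusted p of 0.00685 by DESeq2 and of 0.044 by edgeR without CD replicate 3, the highest CD library. The 3 CD libraries of the title series CD (43.6, 25.3 and 54.0 CPM) overlapped those of CD-CD (29.3, 34.5 and 28.5). In adipose populations Pltp was higher on HFD in both libraries of pop2 and pop3, with no overlap, and the ranges overlapped in pop1 and pop4.

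Abca1 had lower HFD means in all 5 populations. In pop3 the HFD libraries (312 and 325 CPM) lay below the CD libraries (630.1 and 741), a log2 difference of -1.11 (SE 0.52, adjusted p 0.437), and in pop2 the HFD libraries (557 and 501) lay below the CD libraries (748 and 715). In pop1, pop4 and monocytes the ranges overlapped. Over the adipose populations the difference was -0.60 (SE 0.26, adjusted p 0.189), and leaving out single libraries moved it from -0.77 to -0.27. The background was lower on HFD in pop1, pop3 and pop4 and higher on HFD in pop2. Across 32 alternatives, among them the background covariate, the Abca1 difference over the adipose populations stayed within -0.77 to -0.27. It was called in none of them, and no cause was read from these values. Apoe was higher on HFD without overlap in pop1 and pop2, and its difference of diet effects between Tim4+ and Tim4- populations was 0.55 (SE 0.30, adjusted p 0.463).

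Mylip in pop4 was higher on HFD (21.7 and 14.3 CPM) than on CD (7.18 and 5.92), by 1.46 (SE 0.61, adjusted p 0.618). Nr1h3 in monocytes gave 2.33 (SE 1.23, adjusted p 0.774), from the counts given above. Abcg1 in pop1 gave -0.72 (SE 0.71, adjusted p 0.789), and this value rests on HFD replicate 3: it was 0.21 without it and -3.77 (adjusted p 0.0166) with that library alone on HFD.

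**Figure D5:**
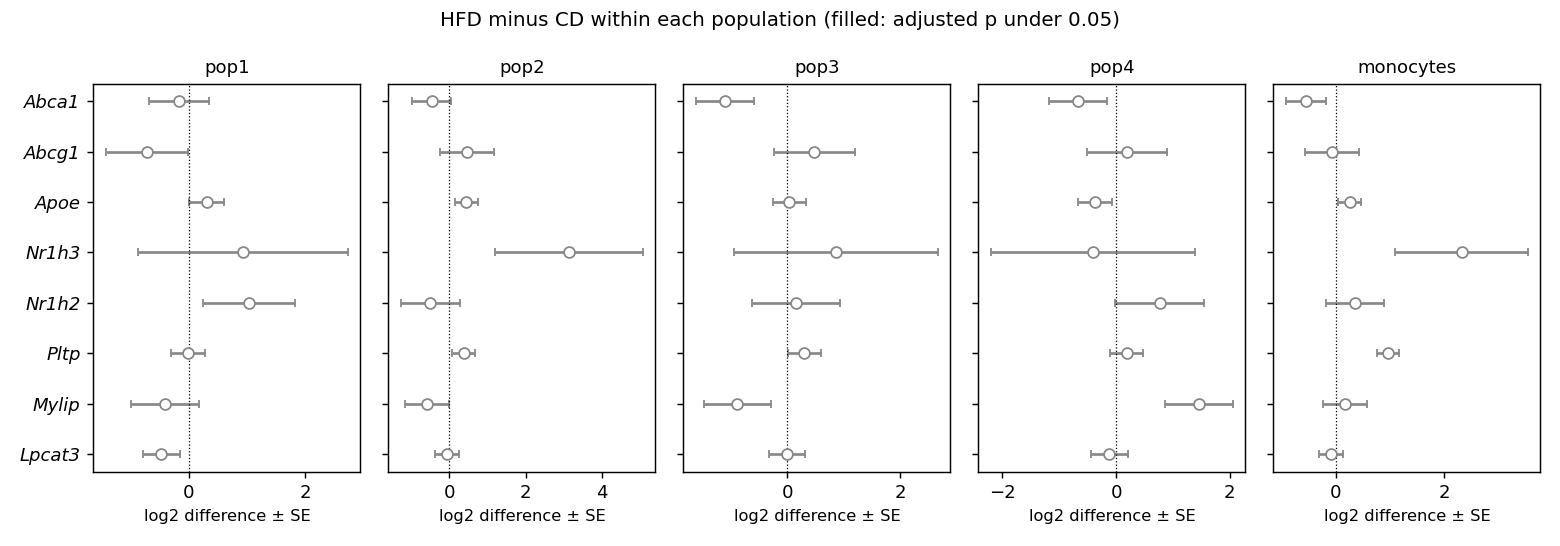
Log2 difference HFD minus CD of each member (x axis, bars are SE) within each population, with a separate x scale per panel; open points have an adjusted p of 0.05 or more. All points are open, and Nr1h3 has the widest bars.

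The wider pathway was described with lists of genes chosen with earlier results of these data known. Each list's count against monocytes stands beside 18.5% of all genes called higher and 18.5% called lower, with a median over all genes of 0.19, and nothing particular to a list is read from its count. With the background covariate, the calls against monocytes were lost for Gps2, Rxrb, Ncoa1, Ch25h, Cyp7b1, Cyp27a1, Stard3, Stard5, Gramd1a, Plin2, Vldlr, Olr1, Msr1, Lss and Idi1, and the Tim4 calls for Mlxipl, Arl4c, Elovl5, Cyp46a1, Nceh1 and Msr1. Of 13 partners and cofactors of LXR, 0 were higher and 5 lower in adipose macrophages than in monocytes (median of the list 0.03 on the log2 scale). Gps2, a subunit of the corepressor complex, was lower (-1.11, SE 0.24, adjusted p 0.00145), as were Rxrb, an RXR gene (-1.05, SE 0.37, adjusted p 0.0313), and the coactivator gene Ncoa1 (-0.61, SE 0.22, adjusted p 0.0365). Gps2 was -0.49 (adjusted p 0.449) when fitted on HFD libraries. The Rxrb and Ncoa1 calls were each lost without several single libraries and with other size factors. In single populations, Rxra, another RXR gene, was called higher than in monocytes in pop1 (1.84, adjusted p 0.0175) and pop2 (1.51, adjusted p 0.0379). The coactivator gene Ncoa3 was called higher in pop1 (0.81, adjusted p 0.0236). Gps2 and Ncor1 were called lower in both pop1 and pop2, and Gps2 in pop3 as well (-1.19, adjusted p 0.0265). Tbl1xr1 of the same list was called lower in pop1 (-0.71, adjusted p 0.0266) and Rxrb in pop2 (-1.55, adjusted p 0.0412). None of the 13 was called between Tim4+ and Tim4- populations. On HFD, Gps2 (1.33, SE 0.30, adjusted p 0.0111) and the corepressor gene Ncor1 (0.56, SE 0.14, adjusted p 0.0228) were higher over the adipose populations and the other 11 were not called. The calls of listed genes for diet over the adipose populations that are named here were lost when counts were summed per title number, and the Ncor1 call was lost without any of 7 single libraries. Gps2 was 12.4 to 43.4 CPM on CD (median 22.2) and 22.1 to 107 on HFD (median 58.4).

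Another 18 tested genes are known LXR targets, and against monocytes 6 of them were called higher and 6 lower (median 0.81). Scd1, a fatty acid desaturase, was 39.8 to 417 CPM in adipose libraries and at most 1.15 in monocytes (log2 8.37, SE 0.63, adjusted p 1.62e-09). The efferocytosis receptor gene Mertk was 7.64 to 186 CPM in adipose libraries and at most 1.12 in monocytes (7.63, SE 0.84, adjusted p 4.19e-07), and the desaturase Fads1 was 27.0 to 160.0 and at most 11.9 CPM (6.39, SE 1.12, adjusted p 0.000148). The log2 values of Scd1 and Mertk depend on the prior count because their monocyte counts were near 0. Fads1 was not near 0 in every monocyte library. The other desaturase gene Scd2 was lower (-2.34, SE 0.50, adjusted p 0.00118).

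Apoc1 and Apoc2, apolipoprotein genes 3.6 and 18.3 kb from Apoe in the same cluster on chromosome 7, went in the opposite direction to it. Apoc2 was 170 to 265 CPM in monocytes and 0 to 73.6 in adipose libraries (-4.28, SE 0.46, adjusted p 3.48e-07). Apoc1 was 17.3 to 40.1 CPM in monocytes and 0 to 7.53 in adipose libraries (-3.68, SE 0.69, adjusted p 0.000292). The ranges did not overlap in either gene, while Apoe was higher in adipose populations as a whole.

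Between Tim4+ and Tim4- populations, 3 of these 18 targets were higher and 2 lower (median 0.26, all genes 0.14). Cd5l, a secreted protein of resident macrophages, was 62.1 to 190 CPM in pop1, 1.98 to 46.3 in pop2 and at most 0.565 in pop3 and pop4 (8.17, SE 0.92, adjusted p 4.67e-06). Mlxipl, a glucose-sensing transcription factor gene, was higher by 4.04 (SE 0.76, adjusted p 0.00103), with 3.08 to 50.9 CPM in pop1 and at most 2.09 in the other populations. Arl4c was higher by 0.85 (SE 0.22, adjusted p 0.0112), a call lost without pop1 HFD replicate 3 (adjusted p 0.0504). Lpl, the lipoprotein lipase gene, was lower in Tim4+ populations (-1.35, SE 0.15, adjusted p 3.63e-06), at 252 to 539 CPM in pop1 and pop2, 689 to 985 in pop3 and 1180 to 1350 in pop4, and Elovl5, a fatty acid elongase, was lower as well (-0.57, SE 0.14, adjusted p 0.0096, but -0.22 with an adjusted p of 0.699 when fitted on CD libraries). Lpl thus had its highest level where Abca1, Apoe and Mylip had their lowest among adipose populations. Over diet, 0 targets were higher and 3 lower on HFD in the adipose populations: Apoc2 (-1.96, SE 0.58, adjusted p 0.0499), Elovl5 (-0.68, SE 0.14, adjusted p 0.00649, also called within pop1 at -1.54 with an adjusted p of 0.0159) and Smpdl3a, a phosphodiesterase gene (-0.49, SE 0.14, adjusted p 0.0405). The Apoc2 call was lost without any of 22 single libraries and turned to 0.25 without pop4 CD replicate 8, and the Smpdl3a call was lost without any of 11.

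Of 6 tested enzymes that make or remove oxysterols, the ligands of LXR, 1 was higher and 2 lower in adipose macrophages (median 0.53). Ch25h, cholesterol 25-hydroxylase, was 3.16 to 38.1 CPM in pop1, 0 to 50.9 in pop2, 0.591 to 66.3 in pop3, at most 0.391 in pop4 and at most 0.242 in monocytes (6.02, SE 1.29, adjusted p 0.00112). This call was lost without any of 4 single libraries: pop2 CD replicate 8, pop2 HFD replicate 3, pop4 CD replicate 7 or pop4 HFD replicate 3. Cyp27a1, the mitochondrial sterol 27-hydroxylase, was lower than in monocytes (-0.66, SE 0.16, adjusted p 0.00347, but -0.38 with an adjusted p of 0.186 when fitted on CD libraries), at 132 to 259.9 CPM in pop1 to pop3, 35.9 ± 9.29 (SD, n = 4) in pop4 and 96.7 to 241 in monocytes. Of the single populations, only pop4 was called lower than monocytes in Cyp27a1 (-2.41, SE 0.27, adjusted p 1.78e-06). Cyp27a1 was higher in Tim4+ than in Tim4- populations (1.30, SE 0.20, adjusted p 0.000106), as was Cyp46a1, the sterol 24-hydroxylase of brain (4.55, SE 0.97, adjusted p 0.00348), which reached 15.4 CPM in pop1 and at most 1.63 in any other adipose library. Cyp27a1 was also called between pop3 and pop4 (2.19, SE 0.28, adjusted p 5.29e-05) but not between pop3 and pop1 or pop2. Cyp7b1, which inactivates oxysterols, was lower in adipose macrophages (-3.36, SE 0.85, adjusted p 0.00452), with 0 to 28.5 CPM in monocytes, a call lost without HFD monocyte replicate 3 (-1.69, adjusted p 0.266). No enzyme of this list was called for diet over the adipose populations together. Within pop2, Hsd3b7, a dehydrogenase gene of bile acid synthesis, was lower on HFD (-1.86, SE 0.49, adjusted p 0.0351).

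Intracellular cholesterol handling had 14 tested genes, of which 2 were called higher against monocytes and 6 lower (median -0.31). Soat1, which esterifies cholesterol for storage, was 65.0 to 309 CPM in adipose libraries and 389 to 564 in monocytes (-1.30, SE 0.22, adjusted p 8.86e-05). Stard3 (-1.36, SE 0.33, adjusted p 0.00273) and Stard5 (-0.94, SE 0.27, adjusted p 0.0103), sterol transfer proteins, were also lower. Gramd1a (1.003, SE 0.32, adjusted p 0.019) and the lipid droplet protein gene Plin2 (0.36, SE 0.13, adjusted p 0.0322) were higher, both with calls lost without single libraries (2 and 14 of them). Between Tim4+ and Tim4- populations only Nceh1, a cholesteryl ester hydrolase, was called (-1.04, SE 0.27, adjusted p 0.0121), and it gave -0.31 (adjusted p 0.823) with the background covariate and -0.71 (adjusted p 0.378) when fitted on CD libraries.

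Of 8 receptors for lipoproteins and lipid, 2 were higher and 4 lower in adipose macrophages (median -0.67). Cd36, a fatty acid and lipoprotein receptor gene, was 1040 to 2823 CPM in adipose libraries and 51.1 to 158 in monocytes (3.76, SE 0.21, adjusted p 1.25e-11), and Vldlr was higher as well (3.71, SE 1.002, adjusted p 0.00688). Scarb1, the high density lipoprotein receptor, was 0.697 to 36.7 CPM in adipose libraries and 48.4 to 111 in monocytes (-3.46, SE 0.38, adjusted p 4.12e-07), and Olr1 (-2.68, SE 0.65, adjusted p 0.00293) and the scavenger receptor gene Msr1 (-1.09, SE 0.27, adjusted p 0.0036) were lower too, Msr1 at -0.48 (adjusted p 0.327) when fitted on CD libraries. Of the single populations, Msr1 was called lower than in monocytes in pop4 (-3.09, SE 0.47, adjusted p 8.9e-05) but not in pop1 or pop3. Msr1 was higher in Tim4+ than in Tim4- populations (1.48, SE 0.33, adjusted p 0.00442), at 125 to 875 CPM in pop1 to pop3 and 25.7 to 292 in pop4. It was called between pop3 and pop4 (2.51, SE 0.48, adjusted p 0.00328) but not between pop3 and pop1 or pop2. On HFD, Cd36 (-0.71, SE 0.19, adjusted p 0.0277) and Msr1 (-1.19, SE 0.33, adjusted p 0.0365) were lower over the adipose populations, calls lost without any of 9 and 11 single libraries.

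In the SREBP2 pathway of cholesterol synthesis and uptake, the synthesis enzyme gene Lss was higher in adipose macrophages than in monocytes (2.99, SE 0.86, adjusted p 0.0105). Idi1, which encodes an isomerase of the same route, was lower (-2.54, SE 0.84, adjusted p 0.0238), a call lost without HFD monocyte replicate 1 (-1.84, adjusted p 0.114). Cyp51, a sterol demethylase gene, was lower in Tim4+ than in Tim4- populations (-2.57, SE 0.43, adjusted p 0.000317). Of 5 genes of the PPAR family, the coactivator gene Ppargc1b was higher in adipose macrophages (3.39, SE 0.79, adjusted p 0.00217) and the other 4 were not called in that comparison. Between pairs of populations, Pparg was called lower in pop1 than in pop4 (-4.91, SE 1.23, adjusted p 0.0103). Ppara (2.81, SE 0.92, adjusted p 0.0202) and Ppargc1a (2.26, SE 0.81, adjusted p 0.0323) were called higher in pop2 than in monocytes.

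The 3 tested genes closest to each member in pattern were found by Pearson's correlation of mean log2 CPM over the 10 groups, which share libraries and depth, and are given as a description. For Abca1 they were Tslp, Cyp1a1 and Ccl12 (r 0.988 each). Tslp, a cytokine gene, was 152 to 497 CPM in pop1 to pop3, 7.44 to 27.2 in pop4 and 1.75 to 34.6 in monocytes, and Cyp1a1 was at most 3.49 CPM anywhere. For Apoe they were Ggt5 (0.988), Glul (0.986) and Rcn3 (0.986), and for Mylip Mfsd6 (0.977), Ptges (0.967) and Csf1r (0.961). For Pltp they were Jup (0.99), Dapk1 (0.99) and Prr15 (0.989). For Abcg1 they were Slc1a5 (0.961), Cdc123 (0.96) and Aim1 (0.937), and for Lpcat3 Alcam (0.96), Socs6 (0.958) and Abce1 (0.956). The receptor genes had looser matches, Baz1b (0.917) for Nr1h3 and 1700088E04Rik (0.869) for Nr1h2.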

How the data were processed

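The authors deposited a table of raw read counts per RefSeq gene model for 25 libraries. Per the submitters' processing notes, STAR 2.5.3a, HOMER and the mm10 build were used; strand, duplicate removal and the handling of reads with several matches are not given in the sources used here. The deposited counts were scaled to CPM with TMM factors (0.893 to 1.15), and levels per kb used the deposited gene lengths. All tests used edgeR 4.0.16 (R 4.3.3): filterByExpr, 10 group means, robust glmQLFit and glmQLFTest, with 16961 genes, 15 residual degrees of freedom, a common biological coefficient of variation of 0.749 and Benjamini-Hochberg adjustment at 0.05. The fit was also run on simulated data with a lower spread than these libraries have, and nothing is concluded from that run. The 8 genes and all lists (170 genes, 169 in the table) were chosen with earlier results of these data known. All 8 genes are named; from each list up to 3 called genes per direction with the largest difference are named, except that some results of the SREBP2 pathway list are not reported here. Alternatives were DESeq2 1.42.0, other size factors, no filter, a background covariate, a replicate block, subsets of groups and leaving out each library. Sequences come from RefSeq, GRCm38.p6. Libraries of a group were not duplicates of each other: their counts differed by 46.0 to 119 times counting variance.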

Additional observations from a re-analysis of the deposited data

Results flagged for a closer look

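The diet effect on Mylip had opposite directions in pop1 and pop4, with no overlap between diets in either population. With 2 libraries per diet, such separation is a weak criterion, and its share over all genes was not computed. In pop1 the HFD libraries (131 and 105 CPM) lay below the CD libraries (178 and 136), and in pop4 they (21.7 and 14.3 CPM) lay above them (7.18 and 5.92). The diet effect in pop4 minus that in pop1 was 1.87 on the log2 scale. This difference was not tested, and neither effect passed the threshold alone. In the monocytes on CD, the 6 values of each of the 8 genes were examined for a library far from the others, and 0 stood out by Dixon's criterion.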

How the results depend on the processing

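The calls of Pltp, Abca1 and Apoe against monocytes kept their direction under every alternative run, and only the Apoe call was lost under any of them (0.79, adjusted p 0.561, with the replicate block and the background covariate together). The 4 called members between Tim4+ and Tim4- populations became 2 with the background covariate, 2 when fitted on CD libraries, 2 when fitted on HFD libraries and 0 with the replicate block and the background covariate. The 24 calls over population pairs became 6 under that last fit. Leaving out single libraries gave 0 to 1 called members for diet in pop1 and 0 to 1 for diet in monocytes, where DESeq2 also gave 1. The shares of all genes called beside these member counts, and beside those of the replicate block below, are not given here. The counts therefore do not show whether the members gained or lost more calls than other genes did.

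Same-numbered libraries showed little shared deviation (correlations of deviations -0.0149 to 0.0747 within adipose tissue). With 2 libraries per adipose group, their deviations mirror each other, so this check cannot show whether the numbers are pairs. The main fit did not take the numbers as pairs, and the replicate block did. In that block, monocyte libraries whose title no adipose library shares carry no weight in the comparisons. Its comparisons with monocytes rest on CD replicates 7 and 8 and HFD replicates 2 and 3, with or without the background covariate. With the replicate block, 4 members were called against monocytes (Nr1h3 added at 3.38, adjusted p 0.0428), 3 between Tim4+ and Tim4- populations (Lpcat3 lost at -0.60, adjusted p 0.0555), 21 over population pairs and 0 for the difference of diet effects. Nr1h3 had 1 count in each of these CD monocyte replicates. Diet in monocytes had a separate fit of CD and HFD replicates 1 to 3, blocked by number. It called 0 members, and with so few libraries nothing is read from that.

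No value that changed sign was called afterwards, but several had been called before: Cyp7b1, Idi1, Stard5, Msr1 and Nceh1, Apoc2 over diet, and Lpcat3 in the 3 population pairs given below. Against monocytes, Nr1h2 was 0.0199 with DESeq2 size factors, 0.0202 with DESeq2 and -0.353 to 0.0398 without single libraries, above 0 without HFD monocyte replicate 2. With the background covariate, Mylip was 0.25 and Cyp7b1 0.92 against monocytes, and Nr1h2 -0.0523 between Tim4+ and Tim4- populations. With the replicate block and the background covariate, values against monocytes were 0.0946 for Abcg1, 1.21 for Mylip, 0.38 for Lpcat3, 0.31 for Msr1, 1.54 for Stard5 and 2.09 for Idi1. In that fit Nr1h3 was -2.18, Nr1h2 -1.58 and Nceh1 0.26 between Tim4+ and Tim4- populations, and Lpcat3 was 0.13 for pop1 and 0.11 for pop2 against pop4 and 0.32 for pop2 against monocytes. Between Tim4+ and Tim4- populations Nr1h3 was -0.54 to 0.79 without single libraries, lowest without pop2 HFD replicate 3, and -0.50 on CD libraries, and Nr1h2 was -0.0955 to 0.50 without single libraries, below 0 in 4 cases: pop1 CD replicate 8 (-0.0955), pop1 HFD replicate 3 (-0.0609), pop2 CD replicate 8 (-0.0453) and pop3 HFD replicate 3 (-0.073). Without single libraries, Abca1 in pop4 against monocytes was -0.25 to 0.76 (lowest without pop4 CD replicate 8), Abcg1 for diet in pop1 -3.77 to 0.21 (highest without HFD replicate 3) and Apoc2 over diet -2.76 to 0.25 (highest without pop4 CD replicate 8). The causes were not tested. DESeq2 size factors moved the median difference of all genes from 0.19 to 0.35 against monocytes and from 0.14 to 0.26 between Tim4+ and Tim4- populations, where 1625 genes were then called higher and 1074 lower in place of 1232 and 1322. The background covariate left 743 genes higher and 1070 lower against monocytes (3139 and 3139 without it). Over diet, DESeq2 called 896 genes higher and 1099 lower where edgeR called 284 and 622. With counts summed per title number, no gene of 17806 was called over diet (2159 at an unadjusted p below 0.05).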
